A study of Mus musculus with 4 samples.

Results

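Fibroblast growth factor (FGF) signalling in the developing organ of Corti was examined through 34 genes, namely all FGF ligands on the array other than Fgf8 and Fgf20, the receptors other than Fgfr3, and the feedback inhibitors and transcription factors that serve as readouts of the pathway. The members were listed by name, out of 29924 gene names on the array, with earlier results of these data known, and each was represented by its brightest probe. RNA was measured on 4 dual-colour Agilent arrays. Each array carried RNA of pooled organs of Corti at E18.5, of Sox2-Tbx2LOF embryos in 1 channel and of control embryos of the same sex in the other. Sox2-Tbx2LOF embryos had the genotype Sox2(creERT2);Tbx2(fl/fl), in which a tamoxifen-dependent recombinase made from the Sox2 locus deletes floxed Tbx2 in Sox2-expressing cells, and by the methods of the study they also carried a membrane reporter of recombination (R26 mTmG) that is itself recombined in these cells. Controls were labelled Tbx2(fl/n.d.), so that by the label their other Tbx2 allele was not determined, and they lacked the recombinase. By the crosses in the methods, littermates without the recombinase would be Tbx2(fl/fl) and carry the same reporter, not recombined. Sox2-Tbx2LOF embryos thus differed from controls by the knock-in at Sox2 as well as by the loss of Tbx2. All mice were NMRI, and all dams received 4 mg of tamoxifen at E16.5, and progesterone by the methods. Only the basal part of each organ was used, pooled by sex, with 1000 ng of RNA per labelling. The Sox2-Tbx2LOF pool was labelled with Cy3 on arrays 1 (female) and 3 (male) and with Cy5 on arrays 2 (female) and 4 (male). By the methods, each pool held organs from several embryos.

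FGF ligands of the paracrine class are secreted, bind heparan sulfate and activate receptor tyrosine kinases on neighbouring cells, whereas endocrine FGFs act at a distance with Klotho co-receptors and FGF homologous factors stay inside the cell and bind voltage-gated sodium channels. Activated receptors signal through RAS and the MAP kinase ERK, which induces the ETS factors Etv1, Etv4 and Etv5 and a set of inhibitors, among them Sprouty and Spred proteins, the ERK phosphatase Dusp6 and the membrane protein Il17rd (Sef), that dampen the same cascade. In the cochlea, FGF signals from the inner hair cell region are known for their part in pillar cell differentiation. Fgf8 and Fgf20, which are not among the members, had mean log2 ratios of −1.57 and −0.82 of Sox2-Tbx2LOF over control and were both called changed. Fgfr3, the receptor of pillar and Deiters cells, was at 0.02.

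Negative log2 ratios stand for less RNA in Sox2-Tbx2LOF than in control pools, and each ratio compares both channels of the same spots. Of the 34 members, 31 were tested, and Fgf4, Fgf16 and Fgf17 were not well above background on any array in either channel. The expression differences were small. After adjustment over all tested probes, 2 of 31 members had an adjusted p under 0.05 in limma, Fgf15 and Etv4, both lower in Sox2-Tbx2LOF. Fgf15 entered the test through the control channel, in which its probe was above background, and with a filter on both channels it was not tested and 1 member remained in this count. Among the 21173 genes tested at their brightest probe, 0.614% were lower and 0.501% were higher by this rule. No member reached the additional fold change of 1.5 that defined a called gene, as 0.274% of all tested genes did. At an unadjusted p under 0.05 there were 10 members lower, against 3.9% of all tested genes, and 1 member higher, against 3.83%. The log2 ratio was below 0 for 19 members and above 0 for 12, with a median of −0.06, while the median over all tested genes was 0.0017 and 48.5% of them were lower.

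**Figure D1:**
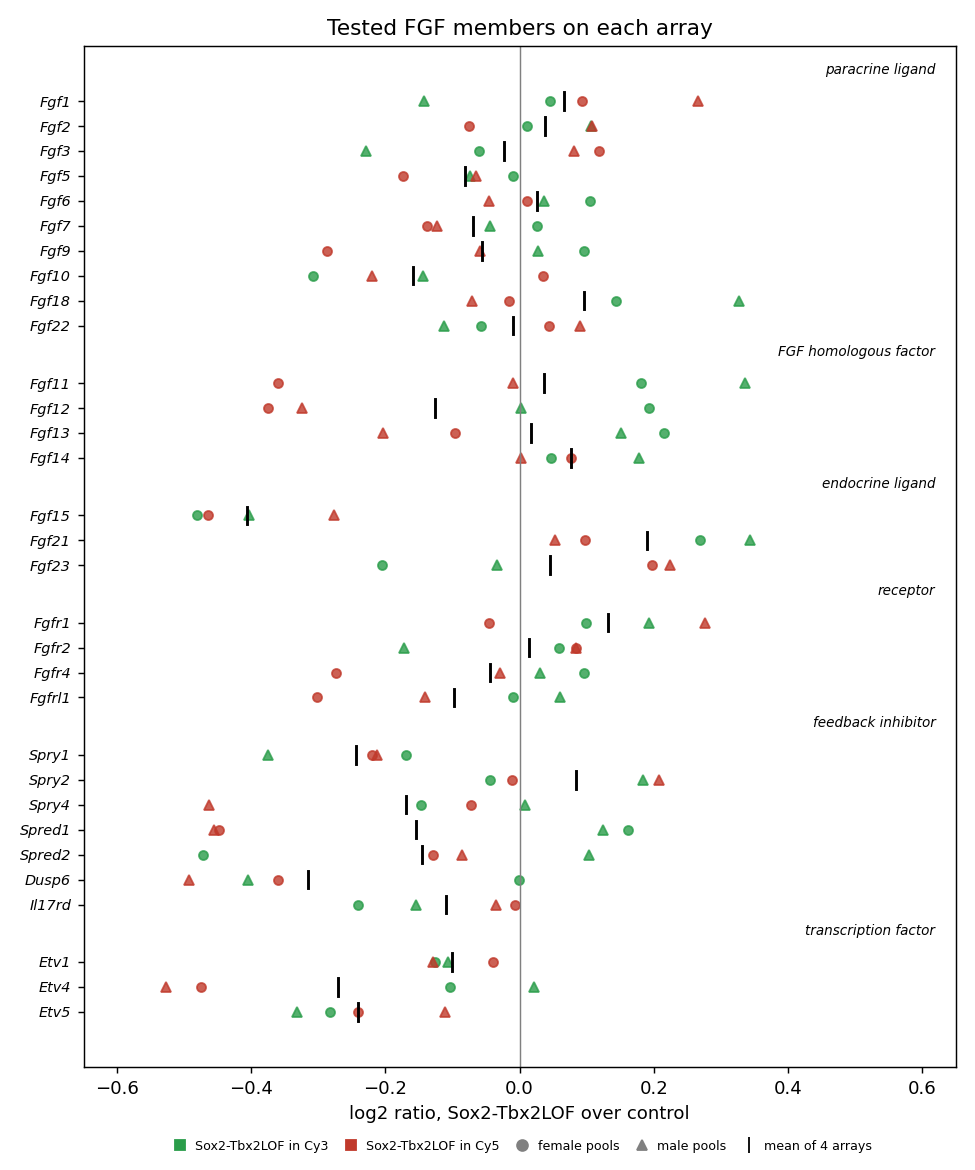
Log2 ratio of Sox2-Tbx2LOF over control (x axis) for the 31 tested members (y axis, grouped by role), with 1 point for each of the 4 arrays. Colour gives the dye of the Sox2-Tbx2LOF pool, shape gives the sex, and the black line is the mean. Feedback inhibitors and transcription factors lie mostly left of 0, with Spry2 at a mean of 0.08 as the exception, and Spred1 and Etv4 separate by dye.

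By role, the counts were as follows. Of the 10 feedback inhibitors and transcription factors, 9 were lower, against 48.5% of all tested genes, with a median log2 ratio of −0.16. Of these, 7 had an unadjusted p under 0.05 in limma, while 3.9% of all tested genes were lower by that rule. Of the 17 tested ligands, homologous factors included, 8 were lower and 9 were higher, with a median of 0.02, and among the 4 receptors 2 were lower and 2 higher (median −0.02). On all 4 arrays, 7 members were lower (Fgf5, Fgf15, Spry1, Dusp6, Il17rd, Etv1 and Etv5), against 4.74% of all tested genes. Another 2 were higher (Fgf14 and Fgf21), against 4.47%. Some of these signs rest on ratios near 0. They were −0.00045 for Dusp6 and −0.010 for Fgf5 on array 1, −0.0071 for Il17rd on array 2 and 0.0023 for Fgf14 on array 4. Fgf15 passed the filter only through the control channel. Whether any of these differences reflects fewer cells of a type or less RNA per cell cannot be told apart in such pools.

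The probes of Fgf15 and of the lower readout genes Dusp6, Spry1, Etv5, Etv4 and Spred1 show which stretch of each transcript was measured. Those of the other lower readout genes, Spry4, Spred2, Il17rd and Etv1, are not listed. The first 30 of the 60 bases of each are given in lower case, as the array files list them, with the place of the whole probe on the build mm9 and its start within the transcript. The files do not name the exon. The Fgf15, Dusp6, Spry1 and Etv5 probes are the only ones of their genes, while Etv4 has 2 and Spred1 has 3, shown because they can be set against each other.
Fgf15 (chr7:152086371-152086430, + strand, from base 1321 of the transcript): cccttttccacttataaatgtcagatggaa
Dusp6 (chr10:98729985-98730044, + strand, from base 2658): catttggtggatgcaacaggttgagaggaa
Spry1 (chr3:37543403-37543462, + strand, from base 2374): ctcatgtctgaatataacatatcactactt
Etv5 (chr16:22381387-22381446, − strand, from base 3761): tgcaccctgccgagctgcgtatattctgta
Etv4, brightest (chr11:101631057-101631116, − strand, from base 2275): taattccacctttgcctcttatgccagacc
Etv4, other (chr11:101631322-101631381, − strand, from base 2010): agatccagtgttctattctggggacataca
Spred1, brightest (chr2:117005906-117005965, + strand, from base 4209): cattaatattttcagtttgtttaaccactt
Spred1, upstream (chr2:117004952-117005011, + strand, from base 3255): gtgatatgctccagcaaacaggttaaaaat
Spred1, other transcript (chr2:116998491-116998550, + strand, from base 1907): caacctcttcattgtttaatgttctggtct

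Among the ligands, the largest difference was that of Fgf15, an endocrine FGF that is best known as an intestinal hormone and is also made in the embryonic nervous system. Its log2 ratios on arrays 1 to 4 were −0.48, −0.46, −0.40 and −0.28. The mean was −0.41 ± 0.09 (SD, n = 4; limma adjusted p = 0.0084), and Fgf15 was lower on 4 of 4 arrays. The probe was dim, being well above background on 4 arrays in the control channel but on 1 array in the Sox2-Tbx2LOF channel. It thus passed the filter only through the group in which it was higher, so that its p does not stand as support on its own, and without any filter on dim probes its adjusted p in limma was 0.0200. Its spot signal above local background was 51.1, 42.8, 48.6 and 28.1 in the control pools, against 12.7, 17.8, 18.3 and 14.8 in the Sox2-Tbx2LOF pools. All 4 Sox2-Tbx2LOF pools were thus below all 4 control pools. The size of the ratio differed between ways of processing. It was −0.53 without background correction and −0.62 with an offset of 16. It was −1.50 in the log ratio of the scanner software and −0.17 in the deposited series matrix, where it did not pass (limma adjusted p = 0.735).

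Fgf21, an endocrine FGF of metabolic control, was the only member higher at an unadjusted p under 0.05. Its log2 ratios were 0.27, 0.10, 0.34 and 0.05, with a mean of 0.19 ± 0.14 (SD, n = 4; limma adjusted p = 0.158), and the values were higher on the arrays with Sox2-Tbx2LOF in Cy3. Fgf10, a paracrine ligand with roles in the morphogenesis of the inner ear, had −0.31, 0.04, −0.14 and −0.22, with a mean of −0.16 ± 0.15 (SD, n = 4; limma adjusted p = 0.521). Array 2 stood on the other side of 0 from the rest. Fgf12, a homologous factor that binds sodium channels, had 0.19, −0.38, 0.00 and −0.32, with a mean of −0.13 ± 0.27 (SD, n = 4; limma adjusted p = 0.641). The sign of Fgf12 followed the dye, and its other probes were at −0.07 and −0.10.

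The remaining 13 tested ligands showed no difference that passed, with mean log2 ratios from −0.08 for Fgf5 to 0.10 for Fgf18 and adjusted p of 0.903 or more. These were the paracrine ligands Fgf1, Fgf2, Fgf3, Fgf5, Fgf6, Fgf7, Fgf9, Fgf18 and Fgf22, the homologous factors Fgf11, Fgf13 and Fgf14 and the endocrine ligand Fgf23, the phosphate-regulating hormone. Of these 13 genes, 5 were lower. Fgf9, which signals from epithelium to mesenchyme in many organs and in the ear, was at −0.06 ± 0.17 (SD, n = 4), and Fgf3, an inducer of the otic placode, was at −0.02 ± 0.16 (SD, n = 4). Fgf11, Fgf13 and Fgf23 separated by dye, with mean ratios of 0.26 and −0.19 for Fgf11, 0.18 and −0.15 for Fgf13 and −0.12 and 0.21 for Fgf23 with Sox2-Tbx2LOF in Cy3 and in Cy5, respectively.

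The 4 tested receptors differed little between the genotypes. Fgfr1, a receptor required in the prosensory domain, had log2 ratios of 0.10, −0.05, 0.19 and 0.28 and a mean of 0.13 ± 0.14 (SD, n = 4; limma adjusted p = 0.778). Its other 2 probes were at 0.18 and 0.03. Fgfr2, the receptor of epithelia that binds Fgf3 and Fgf10 in its IIIb form, had 0.06, 0.08, −0.17 and 0.08 and a mean of 0.01 ± 0.12 (SD, n = 4; limma adjusted p = 1.00). Array 3 stood apart from the rest, also at the overlapping second probe of Fgfr2, where it was at −0.12 and the other arrays lay between 0.01 and 0.05. Fgfr4 had 0.10, −0.27, 0.03 and −0.03, a mean of −0.04 ± 0.16 (SD, n = 4; limma adjusted p = 1.00). Fgfrl1, a receptor without a kinase domain, had −0.01, −0.30, 0.06 and −0.14 and a mean of −0.10 ± 0.16 (SD, n = 4; limma adjusted p = 0.874). A p that misses the threshold does not show that receptor levels were equal.

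Among the feedback inhibitors, Dusp6, a phosphatase that removes phosphate from ERK, had log2 ratios of 0.00, −0.36, −0.41 and −0.49 and a mean of −0.31 ± 0.22 (SD, n = 4; limma adjusted p = 0.1003). The value near 0 came from array 1 alone. Without that array the mean was −0.42 with an adjusted p = 0.0217, and without array 2 it was −0.35 with an adjusted p = 0.0286. Without array 3 it was −0.21 with an adjusted p = 0.323, and without array 4 it was −0.28 with an adjusted p = 0.104, so that Dusp6 passed in 2 of these 4 fits. Spry1, a Sprouty inhibitor of RAS signalling, had −0.17, −0.22, −0.38 and −0.21, with a mean of −0.24 ± 0.09 (SD, n = 4; limma adjusted p = 0.0929). All 4 Sox2-Tbx2LOF pools were below all control pools for Spry1, with log2 channel levels of 12.48, 12.46, 12.29 and 12.45 against 12.65, 12.68, 12.66 and 12.66.

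Spred1, a Sprouty-related inhibitor of RAF activation, had 0.16, −0.45, 0.13 and −0.45 at its brightest probe and a mean of −0.15 ± 0.34 (SD, n = 4; limma adjusted p = 0.295), so that the sign followed the dye. The other 2 Spred1 probes did not show this split. They were lower on 4 of 4 arrays, with means of −0.15 ± 0.017 and −0.17 ± 0.08 (SD, n = 4; limma adjusted p = 0.302 and 0.272). Spred2, a relative of Spred1, had −0.47, −0.13, 0.10 and −0.09 and a mean of −0.15 ± 0.24 (SD, n = 4; limma adjusted p = 0.965). This mean rested largely on array 1, and the log2 ratio fitted without array 1 was −0.00202.

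Spry4, another Sprouty inhibitor, had −0.15, −0.07, 0.01 and −0.46 and a mean of −0.17 ± 0.21 (SD, n = 4; limma adjusted p = 0.630), which rested largely on array 4. The log2 ratio fitted without array 4 was −0.07. Il17rd had −0.24, −0.01, −0.15 and −0.03 and a mean of −0.11 ± 0.11 (SD, n = 4; limma adjusted p = 0.691), lower on 4 of 4 arrays. Spry2 was the only readout gene with a mean above 0, with −0.04, −0.01, 0.18 and 0.21 and a mean of 0.08 ± 0.13 (SD, n = 4; limma adjusted p = 1.00). Its female arrays lay just below 0 and its male arrays above.

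The transcription factors Etv1, Etv4 and Etv5 belong to the PEA3 group of ETS proteins, which FGF signals induce in many tissues. Etv4 had log2 ratios of −0.10, −0.48, 0.02 and −0.53 and a mean of −0.27 ± 0.27 (SD, n = 4; limma adjusted p = 0.0479). The 2 arrays with Sox2-Tbx2LOF in Cy5 had a mean of −0.50, while those with Sox2-Tbx2LOF in Cy3 had a mean of −0.04. The adjusted p of Etv4 depended on the dye term, since it was 0.819 without this term and 0.738 in an unpaired comparison of channel levels. The second Etv4 probe was at −0.19 (limma adjusted p = 0.384). Etv5 had −0.28, −0.24, −0.33 and −0.11 and a mean of −0.24 ± 0.09 (SD, n = 4; limma adjusted p = 0.0769), lower on 4 of 4 arrays. Etv1 had −0.13, −0.04, −0.11 and −0.13 and a mean of −0.10 ± 0.04 (SD, n = 4; limma adjusted p = 0.787), the smallest spread of the ETS factors, and its second probe was at −0.07 ± 0.15 (SD, n = 4).

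**Figure D2:**
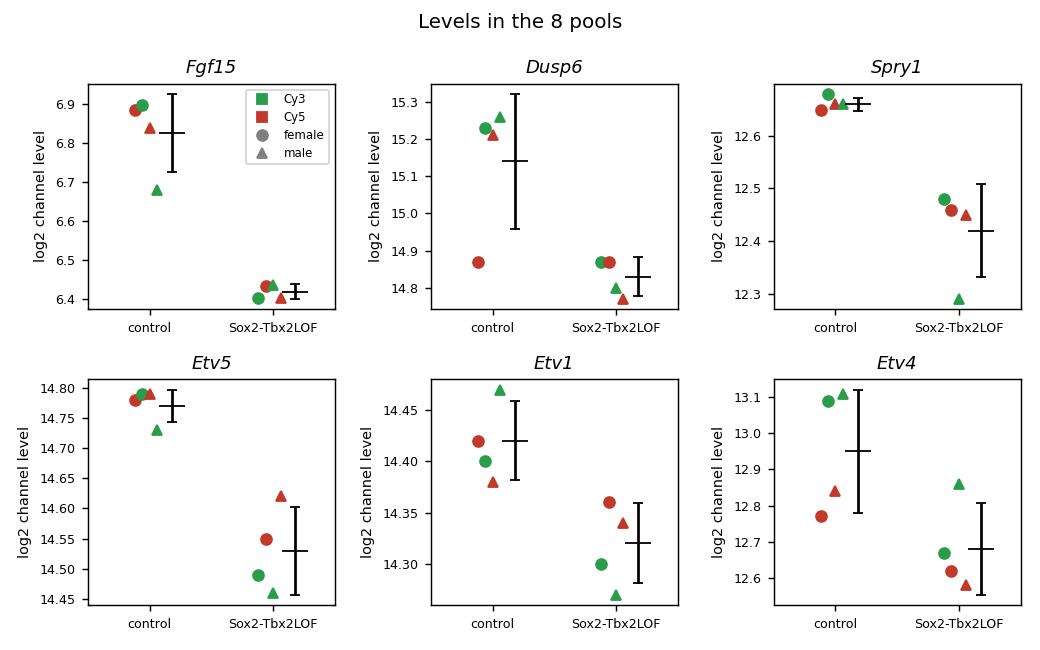
Normalized log2 channel level (y axis, arbitrary units) in the 4 control and 4 Sox2-Tbx2LOF pools for 6 members, with colour for the dye of the pool and shape for its sex; bars give the mean and SD. Pools of Fgf15, Spry1, Etv5 and Etv1 do not overlap between genotypes, Dusp6 pools meet at 14.87 after rounding, and Etv4 overlaps.

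In the channel levels, the pools of the genotypes did not overlap for 5 of 31 tested members, all lower in Sox2-Tbx2LOF. These were Fgf15, Dusp6, Spry1, Etv1 and Etv5. Over all tested genes, 1.45% did not overlap and were lower. Fgf15 passed the filter only through the control channel, in which it was higher, so that its separation does not stand as support on its own. For Etv5 the levels were 14.49, 14.55, 14.46 and 14.62 in Sox2-Tbx2LOF and 14.78, 14.79, 14.79 and 14.73 in control pools. For Dusp6 the separation was narrow, since the control pool of array 1 and the Sox2-Tbx2LOF pools of arrays 1 and 2 were all at 14.87 after rounding.

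**Figure D3:**
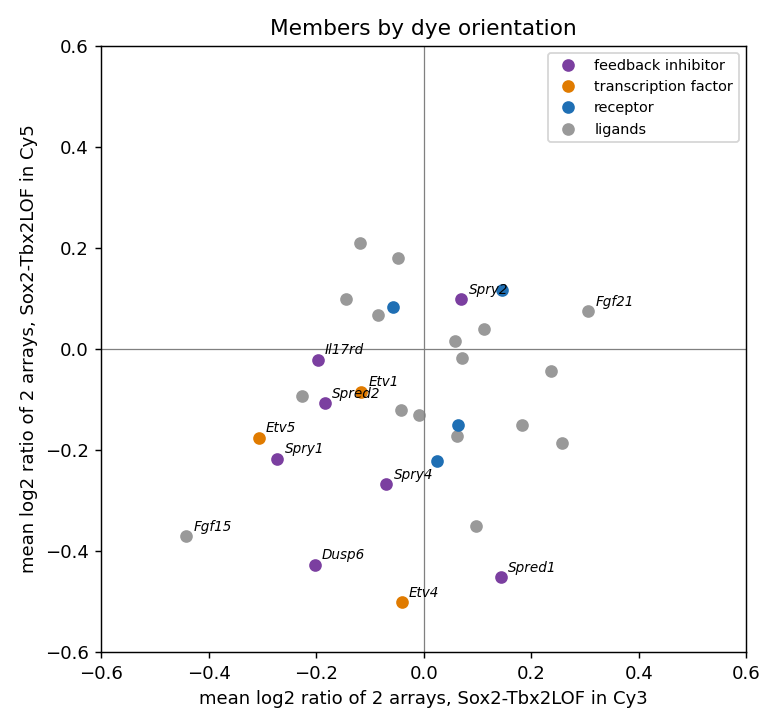
Mean log2 ratio of the 2 arrays with Sox2-Tbx2LOF in Cy3 (x axis) against that of the 2 arrays with Sox2-Tbx2LOF in Cy5 (y axis) for the 31 tested members, coloured by role. Of the 10 feedback inhibitors and transcription factors, 8 lie below 0 on both axes, Spred1 is below 0 only with Sox2-Tbx2LOF in Cy5, and Spry2 is above 0 on both.

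The dye balance bears on these small ratios. Of the 10 feedback inhibitors and transcription factors, 8 were lower on the arrays with Sox2-Tbx2LOF in Cy3 and 9 on those with Sox2-Tbx2LOF in Cy5. Within sexes, 10 were lower on the female arrays and 8 on the male arrays, where Spry2 and Spred2 were above 0. The share of all tested genes that were lower on these subsets of arrays was not computed, so these counts have no background beside them. No member had an adjusted p under 0.05 for a difference between male and female arrays in limma, nor an unadjusted p under 0.05, and over all tested genes 0% had the former and 1.94% the latter.

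Over all members, 14 had more than 1 tested probe, and in 12 of these every tested probe had the same sign. The exceptions were Fgf11, at 0.04 and −0.01, and Fgfr2, at 0.01 and −0.0011.

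The rest of the pathway was followed through 74 further genes, of which 70 were tested. None had an adjusted p under 0.05 in limma. At an unadjusted p under 0.05 there were 8 (11.4%), 5 lower and 3 higher, against 7.73% of all tested genes. The median log2 ratio was 0.02. Of these genes 23 were lower (32.9%, against 48.5% of all tested genes) and 47 higher. Those lower with the smallest p were Egr1, an immediate early gene of ERK signalling, at −0.25 ± 0.15, the cell cycle gene Ccnd1 at −0.16 ± 0.12 and the adaptor Crkl at −0.16 ± 0.07 (SD, n = 4), each on 4 of 4 arrays. Those higher were the RAS activator Sos1 at 0.22 ± 0.06, the heparan sulfate proteoglycan Gpc1 at 0.16 ± 0.04 and the ETS factor Elk1 at 0.11 ± 0.19 (SD, n = 4). The group of further feedback and target genes had 10 of 14 lower (71.4%), with a median of −0.05. The 18 kinase cascade genes had 3 lower (16.7%) and a median of 0.02. Fos was at −0.69 ± 0.95 (SD, n = 4), of which array 1 alone was at −2.01.

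Markers of the cell types in these pools also moved to some extent. Of 6 hair cell markers, 4 were lower, with a median of −0.13. The inner hair cell transporter Slc17a8 at −0.66 was called changed, while Otof was at −0.40, Gfi1 at −0.24 and Pou4f3 at −0.01. The other 2 were higher, Myo7a at 0.09 and Myo6 at 0.10. The mean log2 level of the hair cell list was 10.59 to 10.82 in Sox2-Tbx2LOF pools and 10.77 to 10.95 in control pools. Of 6 mesenchyme markers, 5 were higher, with a median of 0.12 and Col1a1 at 0.34 (limma adjusted p = 0.0614), and the list ranged from 13.07 to 13.34 in Sox2-Tbx2LOF against 12.91 to 13.23 in control pools. The medians of the pillar and Deiters cell, inner supporting cell and medial ridge, neuron, glia, and blood and vessel lists were 0.02, 0.06, 0.03, 0.01 and −0.01. The markers of the hair cell, supporting cell, mesenchyme, neuron and glia lists were above background in both channels of every array. The part of these cell types in the lower readout genes was not tested.

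Dusp6, Spry1 and Etv5 had the lowest mean log2 ratios among the readout genes with a window in the promoter table, although none of them passed the adjusted threshold. The 250 bases before their transcript starts were read from RefSeq on GRCm38.p6, in lower case with each CCAAT or its reverse complement ATTGG in capitals. Etv5 has 2 windows in the table, and the one listed first is shown.
Dusp6 (chr10:99262981-99263230, + strand): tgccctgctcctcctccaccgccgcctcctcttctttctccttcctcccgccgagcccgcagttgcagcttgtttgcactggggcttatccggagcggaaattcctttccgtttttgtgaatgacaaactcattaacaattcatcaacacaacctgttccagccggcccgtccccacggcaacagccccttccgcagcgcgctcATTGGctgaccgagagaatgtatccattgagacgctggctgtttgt
Spry1 (chr3:37639697-37639946, + strand): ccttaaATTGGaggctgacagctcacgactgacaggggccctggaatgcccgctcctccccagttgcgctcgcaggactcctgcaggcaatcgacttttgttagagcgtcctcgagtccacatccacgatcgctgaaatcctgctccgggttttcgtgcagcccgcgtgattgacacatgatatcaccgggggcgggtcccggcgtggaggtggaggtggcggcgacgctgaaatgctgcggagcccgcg
Etv5 (chr16:22439571-22439820, − strand): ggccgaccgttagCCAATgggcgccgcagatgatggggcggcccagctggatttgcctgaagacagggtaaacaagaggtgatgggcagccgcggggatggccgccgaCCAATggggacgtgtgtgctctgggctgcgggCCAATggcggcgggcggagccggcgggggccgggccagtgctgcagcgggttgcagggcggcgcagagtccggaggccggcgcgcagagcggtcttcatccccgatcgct

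RefSeq windows that reach from 250 bases before to just past the start were present for 27 of the 34 members, 35 windows in all, and not for Fgf1, Fgf15, Fgf16, Fgf17, Fgfr1, Spry4 and Etv4. A T-box motif, AGGTGTGA on either strand, was in none of these 35 windows and in 1.28% of all 32851 windows. An ETS motif, CCGGAAGT on either strand, was in 1 member window, that of Fgfrl1, and in 3.89% of all windows. CCAAT on either strand was in 13 of the 35 windows and in 37.4% of all. A match only describes these letters in this window.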

How the data were processed

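RNA of 4 pools of organs of Corti per genotype was compared on 4 two-colour Agilent arrays that shared 1 slide and 1 scan. The authors obtained spot intensity values, not normalized, with Agilent Feature Extraction 10.7.3.1, and the deposited files give besides a log10 ratio (red to green) that the software had corrected. The authors' deposited series matrix holds signed fold changes, other values whose steps are not given in the sources used here. They correlated with the scanner ratios across tested probes (r of 0.917 to 0.941). Spot signals were corrected with normexp (offset 50) in limma 3.58.1 and R 4.3.3 and normalized by loess, fitted without control spots. Outlier-flagged spots were left out when the spots of a probe were averaged. For the channel levels, the mean intensity of both channels was also quantile normalized between arrays. The offset pulls dim ratios towards 0, and loess assumes that most genes do not change. Of 39429 probes with 4 spots each, 28104 were well above background on at least 3 arrays in 1 genotype and were tested, while 69.7% to 74.6% of probes passed in a single channel. The median spot signal was 315 to 412, and the number of arrays limits the precision.

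Log2 ratios of Sox2-Tbx2LOF over control were fitted with limma (lmFit, eBayes) and a dye term, with two-sided p-values and Benjamini-Hochberg adjustment over all tested probes. Genes with an adjusted p under 0.05 that also differed by a fold of 1.5 or more were called changed. The methods of the study name SAM (2-class unpaired), which was an alternative here with all 70 regroupings. The methods call the pools independent, and the sources do not say whether they share litters, so p-values speak only for these pools. They use the spread left after the dye term, which limma moderates with the spread over all tested probes. The printed SD includes the dye split, so a p does not follow it. For example, 2 Spred1 probes with SDs of 0.34 and 0.017 had the same standard error of 0.0462. Every member was named, with values on every array for those with an unadjusted p under 0.05 and for each receptor, feedback inhibitor and transcription factor. The members and lists were chosen with earlier results of these data known. Scripts were tested on simulated data.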

Additional observations from a re-analysis of the deposited data

Results flagged for a closer look

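Among the 31 tested members, Fgfr2 had 1 array far from the others. Its log2 ratio was −0.17 on array 3 and 0.06 to 0.08 on the other arrays, so that the gap to the nearest array was 0.899 of the whole range. Chance flags about 1 in 20 groups of this kind, which is 1.6 of 31 members.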

How the results depend on the processing

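The 9 of 10 feedback inhibitors and transcription factors that were lower stayed at 9 under every limma alternative, leaving out 1 array included. In the unpaired fit, without the dye term, with dye and sex terms and with either other filter, their mean ratios were unchanged by design. This count could thus not move in those settings, and without array 1 it included Spred2 at −0.00202. Within a sex or dye orientation it was 8 to 10 (settings chosen after seeing the data). The count of lower members was 17 to 21, and the median log2 ratio of members was −0.07 to −0.03 (the latter without array 2). The count of members with an adjusted p under 0.05, 2 in the fit described, was 1 in the unpaired limma fit without a replicate block, without the dye term, with dye and sex terms, in the log ratio of the scanner software, with an offset of 16, with median centring, without the filter on dim probes, with the filter for all arrays in both channels, with the mean over probes and in SAM, and 0 in the series matrix. Leaving out 1 array gave 1 to 3, with 3 without array 2 (Fgf15, Dusp6 and Etv4) and 1 without array 3 or 4. Members called changed were 1 in the log ratio of the scanner software and with an offset of 16, namely Fgf15, and 0 elsewhere. Etv4 lost its adjusted p under 0.05 in 12 of 15 alternatives, with 0.0442 to 0.819, and Fgf15 in 1 of 14, with 0.000302 to 0.735. Leaving out 1 array moved Fgfr2 from −0.0442 (without array 1) to 0.0714 (without array 3) and Fgfr4 from −0.105 (without array 4) to 0.0170 (without array 2). These are fitted ratios that weigh both dye orientations equally, not plain means of the arrays kept. Other fitted ratios moved by over 1.5 times, with no adjusted p under 0.05. They were those of Fgfr1 (0.05 without array 4, 0.21 without array 2), Fgfrl1 (−0.06 without array 2) and Fgf10 (−0.10 without array 4). The same held for Fgf12 (−0.08 without array 3) and Spry2 (0.03 without array 3 or 4, 0.14 without array 1 or 2). It also held for Spry4 (−0.07 without array 4, −0.27 without array 2) and Spred2 (−0.00202 without array 1, −0.29 without array 3). Other pathway genes with an adjusted p under 0.05 were 0 to 1 when 1 array was left out, the gene being Fos without array 2 or 3. Over all probes, 70 were called, 124 in the log ratio of the scanner software, 106 without array 1 and 1 in the series matrix, and those with an adjusted p under 0.05, 276, numbered 113 in the unpaired fit, 117 without the dye term, 1 in the series matrix, 84 in SAM without a fold minimum, and 450 and 416 without arrays 2 and 4. The causes were not tested. The signal of Fgf15 is near background, and its probe passed the filter of the main fit only through the control channel.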
